A study of Mus musculus with 5 samples.

Results

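MicroRNAs (miRNAs) were compared between 2 embryonic stem (ES) cell lines of the mouse that were built to switch off a pluripotency factor and 2 ES cultures without such a switch. 2TS22c and ZHBTc4 are ES lines in which expression of Sox2 and of Oct3/4, by background knowledge of these lines, is under the control of a drug. The V6.5 culture is titled wild type, and the culture labelled PKM1 KI is by its name a knock-in for PKM1, a form of pyruvate kinase, which ends glycolysis. The labels name no drug, feeder cell or other treatment for any of these cultures, and all of them grew with LIF, a cytokine that holds mouse ES cells in the undifferentiated state. Lines were assigned to the sides by the labelled cell line and title, which gave 4 of the 5 arrays of the series. The array of the embryoid body was left out. Each line is a line of its own measured on 1 array, so the spread within a side is the spread between 2 lines. It is not the spread between cultures of a line, and the 2 sides also differ in whatever else sets these lines apart. The arrays carry no probe for Sox2, Oct3/4 or pyruvate kinase, so the line labels could not be checked on these genes.

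A miRNA is a short RNA that lowers the output of messenger RNAs with which its seed, bases 2 to 8, can pair. In mouse ES cells the miR-290-295 cluster supplies much of the miRNA content, and members with the seed AAGUGCU speed the passage from G1 to S phase. The miR-302 and miR-367 cluster holds the same seed and is known from the epiblast after implantation and from primed pluripotent cells, whereas the miR-290-295 cluster is known from the naive state. The miR-17-92 cluster and its paralogs, with the related seed AAAGUGC, are known for promoting proliferation.

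Mature sequences were taken from RefSeq (mouse build GRCm38.p6), in which 1030 of the 1265 spots (81.4%) had a match by name. The first 5 are shown because they share 1 seed, in capitals as in all lines here, and lay on opposite sides of the comparison. The 4 after them carry the seed of the miR-17 family or, for miR-367-3p, another seed of the miR-302 cluster. The last 5 stand for the G- and C-rich miRNAs that were lower in 2TS22c and ZHBTc4.
miR-291a-3p: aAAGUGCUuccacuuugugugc
miR-294-3p: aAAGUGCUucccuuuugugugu
miR-295-3p: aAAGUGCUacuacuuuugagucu
miR-302b-3p: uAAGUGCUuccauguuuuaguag
miR-302d-3p: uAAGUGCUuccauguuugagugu
miR-20a-5p: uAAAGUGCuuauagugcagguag
miR-93-5p: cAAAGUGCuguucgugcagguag
miR-17-5p: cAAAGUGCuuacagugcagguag
miR-367-3p: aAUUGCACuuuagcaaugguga
miR-2137: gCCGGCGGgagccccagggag
miR-711: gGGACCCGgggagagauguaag
miR-6538: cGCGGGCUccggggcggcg
miR-2861: gGGGCCUGgcggcgggcgg
miR-762: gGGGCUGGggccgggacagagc
Positions were taken for 11 matched sequences of the miR-290-295 cluster, which lie on the plus strand at chr7:3218674-3220837. The 4 taken for the miR-302 and miR-367 cluster lie on the plus strand at chr3:127545275-127545800. Other matched arms, such as miR-290-5p and miR-302b-5p, were not included, so these are not the spans of the whole clusters.

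Values were spot intensities on single-colour arrays with 1265 mouse miRNA spots. A miRNA counted as detected where it was brighter than the average blank spot (1664 on each array) by over 2 SD of the blank values. Fewer spots were detected on the 2TS22c and ZHBTc4 arrays, with 507 and 520, against 754 on V6.5 and 763 on PKM1 KI. The miRNA intensity above the blank spots, summed and set over the spike controls, was 19.4 and 21.3 on 2TS22c and ZHBTc4, against 25.9 and 28.9 on V6.5 and PKM1 KI. ZHBTc4 was alone on chip 2, and the detector gain was 46 for 2TS22c and 47 for the other arrays. An excess of detected spots thus went with the V6.5 and PKM1 KI side before any scaling, and its part in the results below was not tested. For the main comparison, intensities were background-corrected with an offset of 50, quantile-normalized over the 4 arrays and log2-transformed. Differences are the mean of 2TS22c and ZHBTc4 minus the mean of V6.5 and PKM1 KI. Quantile normalization gives every array the same distribution of values. Differences after scaling to the spike controls, which keeps the unequal totals, are therefore given beside the main ones. Quantile normalization also gives a spot that ranks alike on 2 arrays the same value on both, as happened within both sides for 5 miRNAs. Between 2TS22c and ZHBTc4 alone it happened for others, among them miR-294-3p, miR-2137, miR-17-5p, miR-93-5p, miR-1195, miR-6412 and miR-3963. For all such spots the SE and the limma p leave out the spread of the scanned intensities between the 2 lines of the tied side.

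The 2 arrays of a side resembled each other more than they did the arrays of the other side. Over the 394 miRNAs that all 4 arrays detected, which are not independent points, Pearson's r was 0.989 between 2TS22c and ZHBTc4 and 0.987 between V6.5 and PKM1 KI. Across the sides it ranged from 0.913 to 0.942. Within each side 1 of these miRNAs was at least 2-fold apart, while the 4 pairs across the sides had 26 to 60. The difference of 2TS22c from V6.5 and that of ZHBTc4 from PKM1 KI, which share no array, correlated with r = 0.848 over the same 394 miRNAs.

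**Figure D1:**
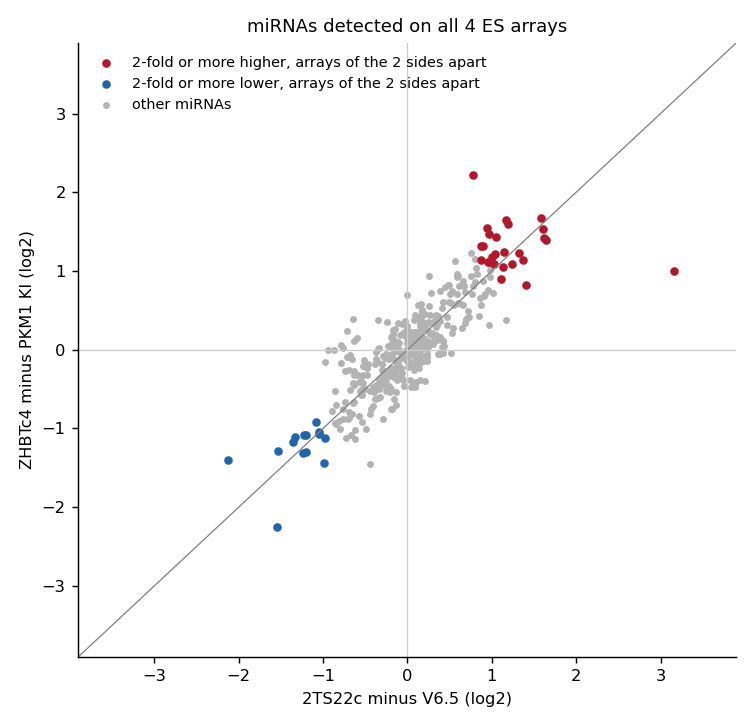
Each point is 1 of the 394 miRNAs detected on all 4 arrays, with the log2 difference of 2TS22c from V6.5 on the horizontal axis and that of ZHBTc4 from PKM1 KI on the vertical axis, after quantile normalization. The line marks equal differences, and the red and blue points, 26 and 14 in number, are those at least 2-fold higher or lower whose arrays do not overlap between the sides. Most points lie along the line, and the point far to the right of it is miR-3096b-5p, which was high on the 2TS22c array.

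Both arrays of 2TS22c and ZHBTc4 lay above both arrays of V6.5 and PKM1 KI for 295 spots (23.3% of 1265), and below both for 319 (25.2%). Of these separated spots, 26 were at least 2-fold higher (2.06% of all spots) and 19 at least 2-fold lower (1.5%), counting only miRNAs detected on both arrays of the brighter side. By limma with Benjamini-Hochberg adjustment over all 1265 spots, 71 passed an adjusted p of 0.05 as higher (5.61%) and 59 as lower (4.66%). The balance depended on the scaling. Among the 394 miRNAs detected on all 4 arrays, 202 were higher and 189 lower after quantile normalization, while 103 were higher and 291 lower after scaling to the spike controls. With the spike scaling limma called 19 higher (1.5% of 1265) and 183 lower (14.5%). The spike scaling moved the median difference of these 394 miRNAs from 0.01 to -0.26 and left no miRNA that was both separated and at least 2-fold higher. Of the 71 higher calls, 18 were calls with both scalings and 16 had the opposite sign with the spike scaling. All 59 lower calls and all 19 miRNAs at least 2-fold lower were so with both. A permutation test of 2 arrays against 2 cannot give a p below 0.333, so none is reported for single miRNAs. With chip as a block, which leaves 2TS22c against V6.5 and PKM1 KI on chip 1, limma called none in either direction, with 125 higher and 93 lower at an unadjusted p under 0.05. It also called none when any 1 of the 4 arrays was left out.

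The miR-290-295 cluster was higher in 2TS22c and ZHBTc4. Of its 14 spots, 13 were separated and called higher by limma, 10 of them at least 2-fold. Over all spots 23.3% were separated and higher, 5.61% called higher, and 2.06% separated and at least 2-fold higher. The median log2 difference of the cluster was 1.14, beside 0 over all 1265 spots. Taken alone, 2TS22c, which shared chip 1 with V6.5 and PKM1 KI, had a median of 1.17, and ZHBTc4 one of 1.12. As markers of ES cells, 13 of the 14 spots were detected on all 4 arrays. The 3 brightest members changed as follows. miR-294-3p had intensities of 4149 on 2TS22c and 4619 on ZHBTc4, against 2745 on V6.5 and 3402 on PKM1 KI, a log2 difference of 1.28 (SE 0.09, limma adjusted p 0.003). miR-295-3p had 2956 and 3392 on 2TS22c and ZHBTc4, against 2114 and 2122 on V6.5 and PKM1 KI, a log2 difference of 1.57 (SE 0.11, limma adjusted p 0.003). miR-292-3p had 2104 and 2157 on 2TS22c and ZHBTc4, against 1350 and 1424 on V6.5 and PKM1 KI, a log2 difference of 1.52 (SE 0.11, limma adjusted p 0.003). For each of these the sides did not overlap even as scanned. With the spike scaling the differences were smaller, at 0.63 for miR-294-3p, 0.69 for miR-295-3p and 0.73 for miR-292-3p.

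Other 3p members, with the AAGUGCU or another seed, were also higher. miR-291a-3p had 1797 and 2257 on 2TS22c and ZHBTc4, against 1404 and 1284 on V6.5 and PKM1 KI, a difference of 1.40 (limma adjusted p 0.00351). miR-293-3p had 1917 and 2070, against 1306 and 1274, in the same order of arrays, a difference of 1.52 (limma adjusted p 0.003). The dimmer miR-290-3p had 119 and 135 on 2TS22c and ZHBTc4, against 97 and 91 on V6.5 and PKM1 KI, a difference of 0.90 (limma adjusted p 0.00485). The 5p arms rose as well after quantile normalization, by 0.89 for miR-290-5p to 1.26 for miR-292-5p. miR-292-5p had 263 and 282 on 2TS22c and ZHBTc4, against 193 and 209 on V6.5 and PKM1 KI. For miR-290-5p the direction turned with the scaling. Its intensities of 784 and 722 on 2TS22c and ZHBTc4 lay below the 855 and 834 on V6.5 and PKM1 KI, and its difference with the spike scaling was -0.05.

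One member, miR-291b-3p, went the other way, close to the detection limit. It had 55 and 66 on 2TS22c and ZHBTc4, against 91 and 88 on V6.5 and PKM1 KI, a log2 difference of -0.23 that did not pass (limma adjusted p 0.326). With the spike scaling 9 of the 14 spots were called higher by limma, beside 1.5% of all spots. The median of the list was then 0.51, beside -0.02 over all spots. Summed above the blank level, the cluster held 7.28% and 6.94% of the miRNA intensity on 2TS22c and ZHBTc4, against 3.44% and 3.37% on V6.5 and PKM1 KI. These shares compare probes of unequal brightness and follow the total of each array. The sum itself was 14585 and 16167 on 2TS22c and ZHBTc4, against 10440 and 10978 on V6.5 and PKM1 KI.

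**Figure D2:**
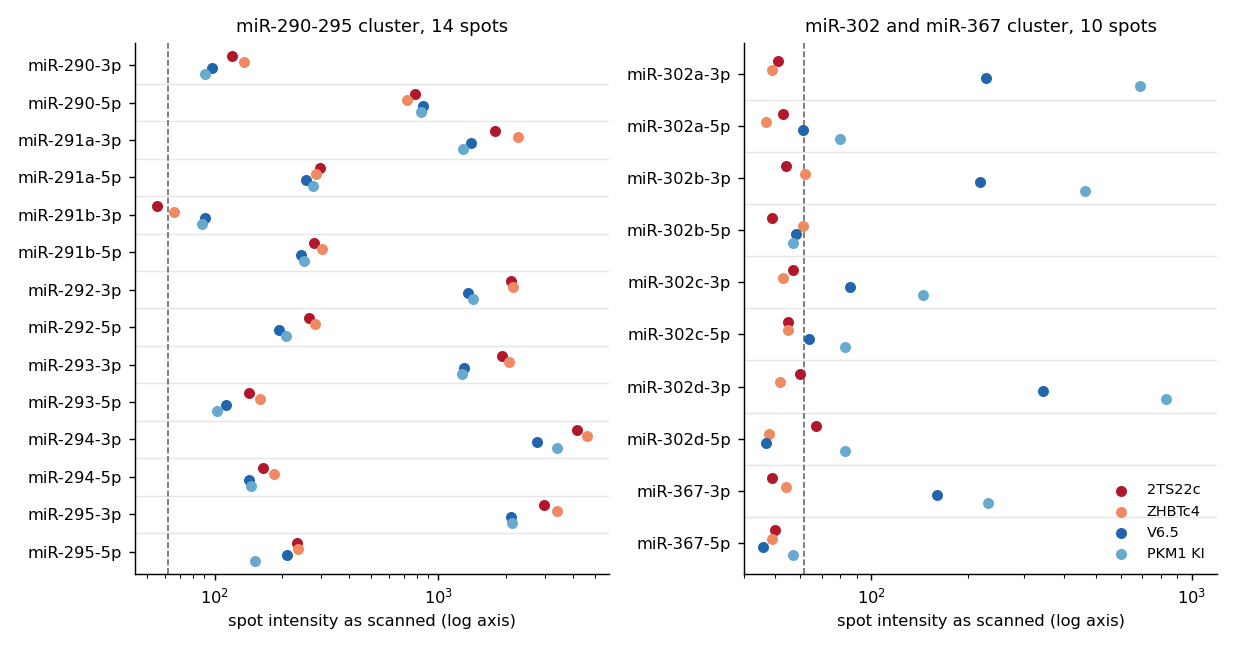
Intensity as scanned, on a log axis, of the 14 spots of the miR-290-295 cluster (left) and the 10 of the miR-302 and miR-367 cluster (right), with 1 point per array and the highest of the 4 detection limits as a dashed line. The 3p arms of the miR-290-295 cluster other than miR-291b-3p are brighter on 2TS22c and ZHBTc4. The 3p arms of miR-302a to miR-302d and of miR-367 are near or below the limit on 2TS22c and ZHBTc4 and above it on V6.5 and PKM1 KI.

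The miR-302 and miR-367 cluster moved the opposite way. Of its 10 spots, 7 were separated and lower in 2TS22c and ZHBTc4 and none was separated and higher, beside 25.2% and 23.3% of all spots. A total of 4 spots were at least 2-fold lower, beside 1.5% of all spots. The same number were called lower by limma, beside 4.66%. The median log2 difference of the cluster was -0.45, with -0.36 for 2TS22c and -0.54 for ZHBTc4 taken alone. miR-302d-3p had intensities of 60 and 52 on 2TS22c and ZHBTc4, against 342 on V6.5 and 829 on PKM1 KI, a log2 difference of -2.37 (SE 0.34, limma adjusted p 0.0114). It was detected on 2TS22c, just above the limit of 59.9, and not on ZHBTc4. miR-302b-3p had 54 and 62 on 2TS22c and ZHBTc4, against 218 and 465 on V6.5 and PKM1 KI, a difference of -1.64 (SE 0.28, limma adjusted p 0.0216). It was detected on ZHBTc4, just above the limit of 61.6, and not on 2TS22c, so both differences are against a side at the background level. Both carry the seed AAGUGCU that miR-291a-3p, miR-294-3p and miR-295-3p carry. Of the spots with a matched sequence, 5 had this seed, of which 3 were at least 2-fold higher while 2 were at least 2-fold lower. miR-302a-3p had no matched sequence and is not in this count.

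miR-302a-3p had 51 and 49 on 2TS22c and ZHBTc4, below the limit on both, against 228 and 690 on V6.5 and PKM1 KI. It was at least 3.62-fold lower (limma adjusted p 0.0285), a bound computed by raising the dim arrays to their lowest detected signal. This bound and those given below for other miRNAs hold for the quantile-normalized values only. miR-367-3p had 49 and 54 on 2TS22c and ZHBTc4, against 160 and 231 on V6.5 and PKM1 KI, at least 2.09-fold lower (limma adjusted p 0.0112). Its log2 difference was -0.83 with local background correction, which uses the background measured at each spot. miR-302c-3p had 57 and 53 on 2TS22c and ZHBTc4, against 86 and 145 on V6.5 and PKM1 KI, and did not pass (limma adjusted p 0.139). The 5p arms lay near the detection limit throughout, from 46 to 83. V6.5 and PKM1 KI differed within the cluster, since PKM1 KI exceeded V6.5 by 1.33 log2 units for miR-302a-3p and by 1.06 for miR-302d-3p. These were 2 of the 4 miRNAs at least 2-fold apart within a side over all spots. With the spike scaling miR-302d-3p had a difference of -2.86 and the median of the list was -0.53.

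The miR-17-92 cluster and its paralogs were mostly higher after quantile normalization, while several of the bright members overlapped between the sides as scanned. Of 26 spots, 17 were separated and higher and 7 separated and lower, 13 were called higher by limma and 1 lower, and the median log2 difference was 0.47. Over all spots 23.3% were separated and higher, 25.2% separated and lower, 5.61% called higher and 4.66% called lower. The counts of lower spots in the list thus lay near the background. miR-17-5p had intensities of 1179 on 2TS22c and 1463 on ZHBTc4, against 1311 on V6.5 and 1172 on PKM1 KI, so that the sides overlapped. Its log2 difference was 1.09 after quantile normalization (limma adjusted p 0.00374) and 0.19 with the spike scaling. miR-20a-5p, of the same cluster, had 948 and 1143 on 2TS22c and ZHBTc4, against 920 and 785 on V6.5 and PKM1 KI, with differences of 1.41 (limma adjusted p 0.00485) and 0.40 by the same 2 scalings. miR-93-5p, of the miR-106b-25 cluster, had 546 and 623 on 2TS22c and ZHBTc4, against 523 and 434 on V6.5 and PKM1 KI, with differences of 1.24 (limma adjusted p 0.00663) and 0.39. miR-106b-5p had 300 and 370 on 2TS22c and ZHBTc4, against 295 and 221 on V6.5 and PKM1 KI, and was the 1 member of this list called higher with both scalings, at 1.22 and 0.47 (limma adjusted p 0.00653 after quantile normalization).

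The direction turned with the scaling for other members. miR-106a-5p and miR-20b-5p, of the paralogous cluster on the X chromosome, had differences of 0.74 and 0.76 after quantile normalization and of -0.07 and -0.09 with the spike scaling. The miR-17-92 list then had a median of 0.02, with 1 member called higher by limma and 4 lower. Over all spots the spike scaling gave 1.5% called higher and 14.5% lower, so the lower calls of the list lay near the background. miR-363-3p, of the same X-linked cluster as miR-106a-5p, was lower by both scalings. It had 66 and 67 on 2TS22c and ZHBTc4, against 141 and 133 on V6.5 and PKM1 KI, with differences of -0.50 (limma adjusted p 0.0243) and -0.80. It shares the seed AUUGCAC with miR-367-3p, and also with miR-25-3p and miR-92a-3p, which had 0.79 and 0.82 after quantile normalization and 0.03 and 0.04 with the spike scaling.

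Smaller lists of miRNAs of ES cells and of the cell cycle also had positive medians. In the miR-130 and miR-301 family 6 of 8 spots were separated and higher, beside 23.3% of all spots. A total of 3 were called higher by limma, beside 5.61% of all spots. The median of the family was 0.26, and 0.15 with the spike scaling. miR-130a-3p had 339 and 324 on 2TS22c and ZHBTc4, against 320 and 236 on V6.5 and PKM1 KI, a difference of 1.13 (limma adjusted p 0.00801). With the spike scaling its difference was 0.37 and did not pass (limma adjusted p 0.123). miR-301a-3p had 106 and 122, against 88 and 82, in the same order of arrays, a difference of 0.84 (limma adjusted p 0.00644), and was a call with both scalings. In the miR-182, miR-183 and miR-96 cluster, known from sensory organs and from ES cells, 4 of 6 spots were separated and higher. miR-182-5p had 213 and 187 on 2TS22c and ZHBTc4, against 147 and 164 on V6.5 and PKM1 KI, a difference of 1.12 (limma adjusted p 0.0112). With the spike scaling its difference was 0.44 (limma adjusted p 0.0469). Of the 13 spots of the miR-15, miR-16, miR-195, miR-497, miR-322 and miR-503 list, known for slowing the cell cycle, 5 were separated and higher and 4 called by limma, with a median of 0.13. miR-16-5p, the brightest of them, changed sign with the scaling, at 0.83 after quantile normalization and -0.04 with the spike scaling.

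Of the 19 miRNAs at least 2-fold lower in 2TS22c and ZHBTc4, 14 were detected on all 4 arrays, none of them of the miR-302 and miR-367 cluster. A matched sequence was at hand for 11 of the 14 (78.6%), too few to describe the composition of the whole set, and these had 59.1% to 100% G and C. miR-2137 had intensities of 2401 and 2990 on 2TS22c and ZHBTc4, against 12793 and 19279 on V6.5 and PKM1 KI, a log2 difference of -1.90 (SE 0.23, limma adjusted p 0.00747). Its mature sequence, shown above, is 85.7% G and C. miR-1892 had 78 and 97 on 2TS22c and ZHBTc4, against 648 and 480 on V6.5 and PKM1 KI, a difference of -1.76 (SE 0.19, limma adjusted p 0.00551). miR-711 had 494 and 570 on 2TS22c and ZHBTc4, against 2502 and 3035 on V6.5 and PKM1 KI, a difference of -1.41 (SE 0.11, limma adjusted p 0.003). miR-326-5p had 470 and 510, against 2322 and 2995, in the same order of arrays, a difference of -1.28 (SE 0.09, limma adjusted p 0.003). The sides lay far apart as scanned for each of these, and with the spike scaling the differences grew to -2.43, -2.39, -2.23 and -2.28 in the order given. With local background correction they were -0.91, -1.7, -1.59 and -1.72 in this order.

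A further 7 bright miRNAs of the 14, chosen by the naming rule given below, followed the same pattern with differences of -1.05 to -1.26: miR-6538, miR-3102-5p, miR-2861, miR-3960, miR-762, miR-328-5p and miR-5109. miR-2861, at 94.7% G and C, had 1865 and 2343 on 2TS22c and ZHBTc4, against 8096 and 10867 on V6.5 and PKM1 KI. miR-762, at 81.8%, had 905 and 1197 on 2TS22c and ZHBTc4, against 4161 and 4905 on V6.5 and PKM1 KI. On all 7 the 2 arrays of V6.5 and PKM1 KI were the brighter ones as scanned. With local background correction the differences of miR-3102-5p, miR-3960 and miR-762 were -0.77, -0.91 and -0.97. Those of miR-6538, miR-2861, miR-328-5p and miR-5109 were -1.2, -1.28, -1.51 and -1.31. The remaining members of the 14, miR-92b-5p, miR-6244 and miR-5126, had differences of -1.06, -1.05 and -1 after quantile normalization.

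**Figure D3:**
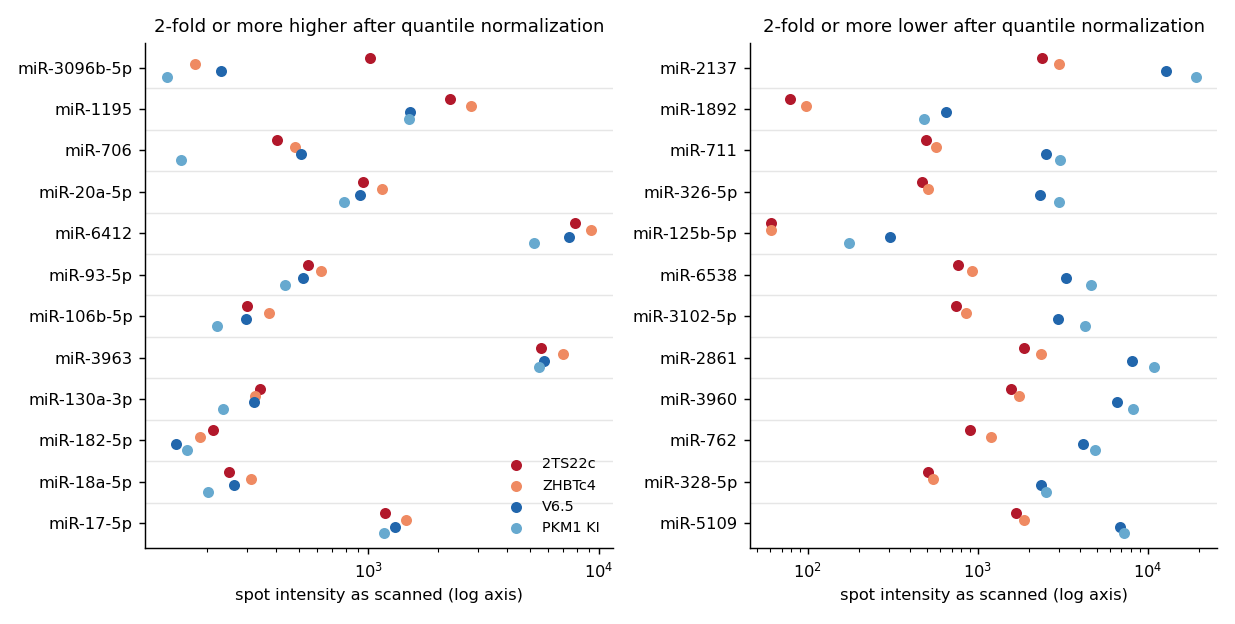
Intensity as scanned, on a log axis, of the 12 miRNAs outside the miR-290-295 and miR-302 clusters that were named as at least 2-fold higher (left) and the 12 named as at least 2-fold lower (right) in 2TS22c and ZHBTc4 after quantile normalization, with 1 point per array. On the right the sides are apart for every miRNA. On the left they are close or overlap for several, such as miR-17-5p and miR-706.

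Base composition went with the direction over all matched spots. Among the 45 matched miRNAs with 70% or more G and C, 34 were lower and 9 higher in 2TS22c and ZHBTc4, with a median log2 difference of -0.28. The 157 with 60% to under 70% had a median of -0.08. The 340 with 50% to under 60% had a median of 0.0. The 309 with 40% to under 50% had a median of 0.05 and the 179 under 40% one of 0.03. With the spike scaling the medians of these groups, from the richest in G and C to the poorest, were -0.68, -0.21, -0.02, 0.04 and 0.04. Spearman's rho between G and C percent and difference was -0.246, and -0.412 with the spike scaling, over the 1030 matched miRNAs, which share the same 4 arrays. Brightness went with composition too. The median normalised log2 level was 7.65 for the richest group and 6.08 for the poorest, and 32 of the 45 richest but 18 of the 179 poorest were detected on all 4 arrays.

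**Figure D4:**
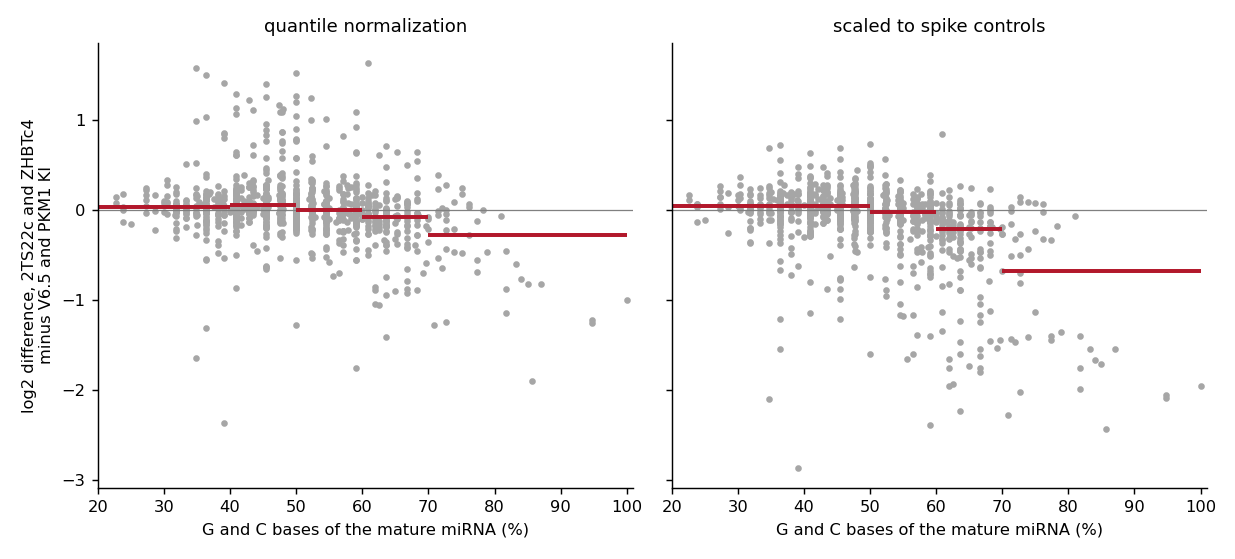
Log2 difference of 2TS22c and ZHBTc4 from V6.5 and PKM1 KI against the percent of G and C bases in the mature sequence, for the 1030 miRNAs with a sequence, after quantile normalization (left) and with the spike scaling (right). Red bars are medians of the 5 groups of composition, which fall to -0.28 and -0.68 at 70% and over.

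Several single miRNAs without a list had large positive differences. miR-1195 had intensities of 2252 and 2789 on 2TS22c and ZHBTc4, against 1521 and 1501 on V6.5 and PKM1 KI, a log2 difference of 1.63 (SE 0.09, limma adjusted p 0.003), and 0.84 with the spike scaling. Its quantile-normalized value was 11.77 on both 2TS22c and ZHBTc4, so this SE leaves out their spread as scanned. miR-6412 had 7863 and 9255 on 2TS22c and ZHBTc4, against 7432 and 5237 on V6.5 and PKM1 KI, a difference of 1.25 (SE 0.20, limma adjusted p 0.0168). Both were called higher with both scalings. miR-3963 had 5592 and 6989 on 2TS22c and ZHBTc4, against 5773 and 5468 on V6.5 and PKM1 KI, so its difference of 1.16 (limma adjusted p 0.00351) came with overlapping intensities, and was 0.27 with the spike scaling.

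The largest positive difference of all belonged to 1 array. miR-3096b-5p had 1013 on 2TS22c and 177 on ZHBTc4, against 230 on V6.5 and 134 on PKM1 KI. Its log2 difference of 2.08 (SE 0.84) did not pass (limma adjusted p 0.241), and ZHBTc4 alone differed from the V6.5 and PKM1 KI mean by 0.72. miR-706 in turn was low on PKM1 KI only. It had 401 and 482 on 2TS22c and ZHBTc4, against 512 and 154 on V6.5 and PKM1 KI, and its difference, a fold of 2.83, did not pass either (limma adjusted p 0.109).

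miRNAs known from fibroblasts and other mesenchymal cells, which also mark the feeder cells on which ES lines are often grown, were examined because the labels do not say whether feeders were used. Of 36 spots, 7 were separated and higher in 2TS22c and ZHBTc4 and 8 separated and lower, and 2 were called by limma, both lower, beside 3 higher and 5 lower at an unadjusted limma p under 0.05. Over all spots 23.3% were separated and higher, 25.2% separated and lower and 4.66% called lower, so these counts lay near the background. The median difference was -0.01. By the spike scaling the median was -0.04 and limma called 8 lower and 0 higher, beside 14.5% lower over all spots. miR-21a-5p and miR-29a-3p, both also found in many other cell types, were the 2 calls. miR-21a-5p had 117 and 119 on 2TS22c and ZHBTc4, against 316 and 317 on V6.5 and PKM1 KI, a difference of -0.56 (limma adjusted p 0.0164). miR-29a-3p, which targets collagen transcripts, was detected only on V6.5 and PKM1 KI. It had 59 and 56 on 2TS22c and ZHBTc4, against 180 and 136 on V6.5 and PKM1 KI, at least 1.72-fold lower (limma adjusted p 0.0112).

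The spot shared by miR-199a-3p and miR-199b-3p had 43 and 60 on 2TS22c and ZHBTc4, against 177 and 96 on V6.5 and PKM1 KI, at least 1.51-fold lower, and did not pass (limma adjusted p 0.0992). With local background correction its log2 difference was -0.11. miR-24-3p, the brightest of the list, had 389 and 383 on 2TS22c and ZHBTc4, against 999 and 919 on V6.5 and PKM1 KI, with a difference of -0.24 that did not pass (limma adjusted p 0.342) and one of -1.17 with the spike scaling. The 3 spots higher at an unadjusted limma p under 0.05 were miR-23a-3p, miR-27a-3p and miR-22-3p. Their differences were 0.39, 0.33 and 0.23 after quantile normalization and -0.28, -0.20 and -0.10 with the spike scaling. The list summed above the blank level was 876 and 927 on 2TS22c and ZHBTc4, against 2487 and 2105 on V6.5 and PKM1 KI. A total of 9 of the 36 spots, but not miR-21a-5p, miR-29a-3p, miR-199a-3p/miR-199b-3p or miR-24-3p, were detected on none of the 4 arrays. The summed level of the list was thus lower on the same side as the miR-302 and miR-367 cluster and miR-125b-5p, as was the summed intensity of all miRNAs, and its part in those results was not tested. In such bulk RNA, fewer cells of a type and less RNA per cell cannot be told apart.

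miR-125b-5p, known from differentiated cells and fibroblasts, was at least 2-fold lower, the 1 such member of the miR-99/100 and miR-125 families. It had 61 and 61 on 2TS22c and ZHBTc4, against 303 and 175 on V6.5 and PKM1 KI, a log2 difference of -1.28 (SE 0.20, limma adjusted p 0.0164), and -1.60 with the spike scaling. It was detected on 2TS22c, just above the limit of 59.9, and not on ZHBTc4, so the difference is against a side at the background level. Of the 11 spots of these families, 2 were called higher by limma and 1 lower, beside 5.61% and 4.66% of all spots. With the spike scaling 0 were called higher and 2 lower, beside 1.5% and 14.5% of all spots. The let-7 family, which builds up when ES cells differentiate, had no limma call among 22 spots in either direction, 1 separated and higher, 2 separated and lower, and a median of 0.00. At an unadjusted limma p under 0.05 it had 0 higher and 1 lower. Among the 10 spots of the miR-200 family, known from epithelia, 1 was separated and higher and 2 were separated and lower, with no limma call in either direction and 0 at an unadjusted limma p under 0.05. Over all spots 23.3% were separated and higher and 25.2% separated and lower.

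The miRNAs of the Dlk1-Dio3 imprinted region, a cluster whose silencing is known in some pluripotent lines, were detected on more V6.5 and PKM1 KI spots. Of 105 spots, 30 and 29 were detected on 2TS22c and ZHBTc4, against 67 and 75 on V6.5 and PKM1 KI. A total of 39 were separated and lower and 14 separated and higher, beside 25.2% and 23.3% of all spots. Limma called 5 lower and 3 higher, with a median of -0.05. The lower calls were near the 4.66% over all spots. Scaled to the spike controls, the list had 15 spots called lower by limma and 0 called higher, beside 14.5% lower over all spots, and the median was -0.08. miR-381-3p had 56 and 50 on 2TS22c and ZHBTc4, against 108 and 110 on V6.5 and PKM1 KI, at least 1.34-fold lower (limma adjusted p 0.0191). miR-127-3p, antisense to the imprinted gene Rtl1, had 56 and 54 on 2TS22c and ZHBTc4, against 105 and 110 on V6.5 and PKM1 KI, at least 1.32-fold lower (limma adjusted p 0.0184). miR-487b-3p was among the 3 called higher, at 0.77 (limma adjusted p 0.0109), but its difference was 0.05 with the spike scaling. Detection was lopsided over all miRNAs too, at 40.1% and 41.1% of spots on 2TS22c and ZHBTc4, against 59.6% and 60.3% on V6.5 and PKM1 KI.

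The families of miR-669, miR-467, miR-466 and miR-297, near-identical miRNAs from an intron of Sfmbt2, had 32 of 71 spots separated and lower and 3 separated and higher. Over all spots the shares were 25.2% and 23.3%. None passed limma in either direction, although 11 were lower and 0 higher at an unadjusted limma p under 0.05, and the median was -0.18. With the spike scaling 26 were called lower, beside 14.5% of all spots, and the median was -0.32, beside -0.02 over all spots. Probes of such similar miRNAs may share targets, so these spots are not independent. miR-466d-3p had 108 and 111 on 2TS22c and ZHBTc4, against 315 and 228 on V6.5 and PKM1 KI, a log2 difference of -0.53 (limma adjusted p 0.0718).

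Lists of other tissues gave small medians. They were 0.05 for 24 neural spots, 0.05 for 15 of heart and skeletal muscle, 0.10 for 17 of liver, gut and pancreas, 0.06 for 14 of blood and endothelium, -0.02 for 9 of the Hox clusters and -0.10 for the 11 of the miR-34 family, which p53 induces. None of their spots was called lower by limma, and 1, in the list of blood and endothelium, was lower at an unadjusted limma p under 0.05. Scaled to the spike controls, 3 neural spots and 1 of blood and endothelium were called lower by limma and 1 of heart and skeletal muscle higher. Over all spots this scaling gave 14.5% called lower and 1.5% higher. After quantile normalization those called higher were miR-124-3p and miR-138-2-3p in the neural list, miR-375-5p in that of liver, gut and pancreas, and miR-34a-5p. miR-124-3p, abundant in neurons, had 99 and 107 on 2TS22c and ZHBTc4, against 99 and 61 on V6.5 and PKM1 KI, a difference of 0.77 (limma adjusted p 0.0381), and of 0.45 with the spike scaling, where it did not pass (limma adjusted p 0.0855). miR-375-5p and miR-34a-5p had differences of 0.64 and 0.76 (limma adjusted p 0.0163 and 0.0208), which were -0.26 and 0.09 with the spike scaling. Among 11 spots of miRNAs reported to act on Oct4, Sox2 or Nanog transcripts, 1 was separated and higher and 4 were separated and lower. Over all spots these shares were 23.3% and 25.2%. Limma called none of the 11 in either direction, with 1 higher and 1 lower at an unadjusted limma p under 0.05 and 1 called lower with the spike scaling.

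**Figure D5:**
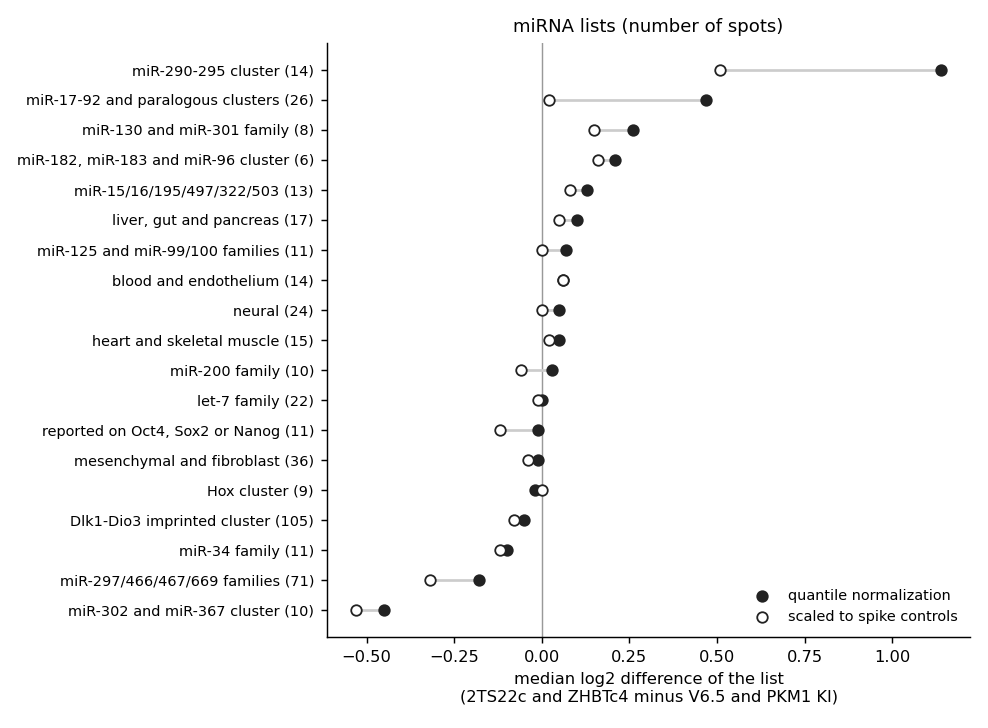
Median log2 difference of 2TS22c and ZHBTc4 from V6.5 and PKM1 KI for the 19 miRNA lists, with the number of spots in brackets, after quantile normalization (filled) and with the spike scaling (open). The miR-290-295 cluster lies highest by both, at 1.14 and 0.51, the miR-302 and miR-367 cluster lowest, at -0.45 and -0.53, and the miR-17-92 list moves from 0.47 to 0.02.

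Detection itself was lopsided. A total of 6 miRNAs were detected on both 2TS22c and ZHBTc4 and on neither V6.5 nor PKM1 KI, against 142 the other way, and 394 were detected on all 4 arrays. By a limit taken from negative control spots these numbers were 8, 74 and 289. The brightest of the 6 was miR-322-5p, an X-linked miRNA that targets cell cycle genes. It had 75 and 78 on 2TS22c and ZHBTc4, against 52 and 58 on V6.5 and PKM1 KI, at least 1.47-fold higher (limma adjusted p 0.0138). The next 4, miR-383-5p, miR-196a-5p, miR-335-3p and miR-488-3p, had 60 to 72 on 2TS22c and ZHBTc4, against 48 to 59 on V6.5 and PKM1 KI, and none passed (limma adjusted p 0.0928 to 0.2). Among the 142, miR-302a-3p, miR-367-3p, miR-29a-3p, the spot of miR-199a-3p and miR-199b-3p, and miR-302c-3p were the brightest.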

How the data were processed

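Per the labels, each culture gave 1 array of Hy5-labelled total RNA. The deposited scanner files hold the intensity of each spot as a pixel median, with no background taken off per the file headers; how the RNA amount was set is not given in the sources used here. A second deposited table, of the authors' processed intensity, has columns that follow the scanner values (r at least 0.99998) with a shared median of 25; its background and scaling steps are not given in the sources used here.

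Intensities of the 4 ES arrays were corrected with limma's normexp (all 3200 spots, offset 50), quantile-normalized over 1265 miRNA spots and put on a log2 scale. The offset pulls differences of dim spots towards 0. Spots were tested 2 arrays against 2 with limma 3.58.1 in R 4.3.3 (lmFit, eBayes, 5.62 total df, Benjamini-Hochberg adjusted p under 0.05). The script was checked on simulated data. A spot of several miRNAs (13 in all) has their names joined. Named miRNAs are the 15 largest differences in each direction among separated, detected spots, the 10 smallest p, list members at least 2-fold apart, the 5 brightest detected on 1 side only in each direction, and other list members as examples. The comparison, the lists and this rule were chosen with earlier results of these data known. No data of the embryoid body entered the comparison. The number of arrays limits the precision.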

Additional observations from a re-analysis of the deposited data

Results flagged for a closer look

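Besides the miRNA spots, the arrays carry spots named S-Probe whose targets the files do not state. A total of 7 of them lay above the negative control limit on all 4 ES arrays, and the lowest intensity over these arrays was 144 for S-Probe1002, 69 for S-Probe1005, 106 for S-Probe1007, 2029 for S-Probe1014, 89 for S-Probe1016, 1177 for S-Probe1018 and 109 for S-Probe1019. S-Probe1014 had 2029 and 2397 on 2TS22c and ZHBTc4, against 4079 and 6104 on V6.5 and PKM1 KI, and S-Probe1007 had 106 and 130 on 2TS22c and ZHBTc4, against 230 and 274 on V6.5 and PKM1 KI. On the embryoid body array, which the comparison leaves out, 31 miRNAs lay above the negative control limit that lay above it on no ES array.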

How the results depend on the processing

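Counts of calls moved with the scaling. The number called higher by limma in 2TS22c and ZHBTc4, 71 in the report, was 15 with median scaling, 19 with spike control scaling, 20 with local background correction and 17 with the authors' table; the number called lower, 59 in the report, was 185, 183, 13 and 222 with these, and 30 with an offset of 16. Scaling to the median of the miRNAs detected on all 4 arrays, chosen after seeing the data, moved the median of all spots by 0.36 and gave 718 higher and 109 lower. The separated miRNAs at least 2-fold higher, 26 in the report, numbered 0 with median or spike scaling, 8 with the detected median and 12 with the authors' table, and those at least 2-fold lower, 19 in the report, 83, 83, 50 and 260, and 12 with local background. Separated spots of any size, 295 higher and 319 lower in the report, were 958 and 141 with the detected median, 150 and 133 over the miRNAs detected on all 4 arrays, and 524 lower with the authors' table.

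With chip as a block, which rests on 2TS22c against V6.5 and PKM1 KI, or with any 1 array left out, limma called 0 higher and 0 lower, with 90 to 128 higher and 83 to 114 lower at an unadjusted p under 0.05; 3 arrays leave 1 residual degree of freedom. With 1 array left out, 13 to 31 miRNAs were at least 2-fold higher (13 without PKM1 KI), 16 to 24 at least 2-fold lower, 424 to 477 separated and higher and 445 to 492 separated and lower. Of the 46 miRNAs named other than as examples, 44 kept their sign in every alternative. The exceptions were miR-196a-5p, at -0.08 with local background correction, and miR-488-3p, at -0.32 with the authors' table. List members named only as examples were left out of this count. Several of them changed sign with the spike scaling, such as miR-290-5p, at -0.05, and miR-16-5p, at -0.04. Of the 71 higher calls, 16 had the opposite sign with that scaling. The causes were not tested. No paired analysis was possible because the labels give no replicate numbers shared between the sides. Intensities near the blank spots limit what can be said of dim miRNAs.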
